A study of Mus musculus with 77 samples.

Results

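The antibody genes of the mouse lie in 3 loci: the heavy chain locus Igh on chromosome 12 and the light chain loci Igk on chromosome 6 and Igl on chromosome 16. The regions described here are all CUT&RUN peaks that touch chr12:113200001-116010000 (Igh), chr6:67500001-70730000 (Igk) or chr16:19020001-19270000 (Igl) in mm10, which is 5538 of the 883735 peaks in 77 lists. Igk held 4626 of them, Igh 639 and Igl 273. The rule for members uses position alone and no measured value of a peak.

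Igh and Igk each hold an array of variable (V) segments, followed by joining (J) and constant (C) segments, with diversity (D) segments as well in Igh. Igl holds 3 V segments, 1 in its lower part and 2 in its upper part, each part with its own J and C segments. During B cell development 1 V segment is joined to the J segments on an allele, so most V segments of a mature B cell are left unused. H3K27me3 is set by Polycomb repressive complex 2 and H2AK119Ub, ubiquitin on histone H2A, by Polycomb repressive complex 1, and both are known for silent chromatin. H3K27ac is found at active promoters and enhancers. Xist is the long non-coding RNA that coats the inactive X chromosome in female cells.

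The cells were CD23+ B cells from the spleens of female mice, profiled at 24 h, after stimulation through Toll-like receptor 9 with CpG DNA at 1 µM, and at 0 h, unstimulated. In the mb1-cre system, in which Cre is made from the B cell gene mb1 (Cd79a) from early in the B lineage, the genotypes were Xist fl/fl ; mb1-cre+ and WT (mb1-cre+), so that the controls carry the Cre as well. In the TAT-Cre system, Xist fl/fl and WT cells were given 80 µg of the cell-permeable protein TAT-Cre for 45 min before the 24 h of CpG, and the 0 h cells had neither, so that Cre and CpG cannot be told apart in the time comparison of that system. Each of the 3 marks had 3 libraries per genotype, time and system. The exception was H3K27me3 in the mb1-cre system, with 4 libraries of Xist fl/fl at 24 h, 4 of WT at 24 h, 5 of Xist fl/fl at 0 h and 4 of WT at 0 h. The labels call the replicates biological without naming separate animals, so p-values here speak only of the spread among these libraries. The replicate 5 library of H3K27me3 mb1-cre Xist fl/fl is titled as naive while its treatment entry says stimulated. It was placed at 0 h by its title. Its Igk enrichment of 6.03 lay within the range of the other 0 h libraries, 5.05 to 7.64. It was the lowest of its own group in Igk and, at 2.70, in Igl. These values are themselves compared between times below, so they do not settle the placement.

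The lists differed in length, and this bears on every value below. H2AK119Ub lists held 9334 to 37328 peaks at 24 h and 2004 to 40688 at 0 h. H3K27ac lists held 3669 to 10215 peaks at 24 h and 1336 to 10393 at 0 h, and H3K27me3 lists 3981 to 15150 at 24 h and 1955 to 19074 at 0 h. The read depth behind the lists is unknown. Coverage of a locus was therefore divided by coverage of the 19 autosomes in the same list, a ratio called enrichment here. The B cell label was met by the H3K27ac peaks, which touched 8 of 8 B cell marker genes in 24 of 24 libraries. Of the myeloid markers 0 of 6 had a peak in any library. Between 1 and 2 of 8 T cell markers had a peak in each library at 24 h, against 0 to 3 at 0 h, and these were Lck, Cd3d and Cd247.

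The sequence under the peaks was not used here. Promoters of RefSeq (GRCm38.p6, 250 bases before the start to 50 after, in the direction of the gene) were at hand for 13 genes in the windows, none of them a V segment. They held a median of 1 CG dinucleotide, with a range of 0 to 5, against a median of 7 over all 32851 promoters in the table. The octamer ATGCAAAT, or ATTTGCAT on the other strand, the motif of the Oct transcription factors known from immunoglobulin promoters, was in 2 of the 13 and in 1.74% of all promoters. The 4 below are shown because they lie under the blocks of marks described in the results, with capitals at each CG and at the octamer. LOC108169192 (chr6:68880650-68880949, minus strand) lies within the Igk V array and had an H2AK119Ub peak in 1 of 12 libraries at 24 h, against 6 of 12 at 0 h. Gm46962 (chr6:70220655-70220954, minus strand) lies in the J-proximal V array, with H2AK119Ub in 1 of 12 libraries at 24 h against 7 of 12 at 0 h, and H3K27me3 in 3 of 14 against 4 of 15. Gm46961 (chr6:70718827-70719126, minus strand) lies just before the Jκ segments and had H3K27ac in 12 of 12 libraries at both times. Gm35545 (chr16:19218252-19218551, plus strand) lies in Igl and had H3K27ac in 12 of 12 libraries at 24 h and 11 of 12 at 0 h.
LOC108169192: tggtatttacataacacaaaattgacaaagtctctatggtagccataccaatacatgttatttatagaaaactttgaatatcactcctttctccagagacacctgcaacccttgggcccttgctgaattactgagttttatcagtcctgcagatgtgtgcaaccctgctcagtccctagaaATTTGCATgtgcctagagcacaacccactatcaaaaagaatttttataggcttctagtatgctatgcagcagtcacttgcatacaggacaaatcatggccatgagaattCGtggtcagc
Gm46962: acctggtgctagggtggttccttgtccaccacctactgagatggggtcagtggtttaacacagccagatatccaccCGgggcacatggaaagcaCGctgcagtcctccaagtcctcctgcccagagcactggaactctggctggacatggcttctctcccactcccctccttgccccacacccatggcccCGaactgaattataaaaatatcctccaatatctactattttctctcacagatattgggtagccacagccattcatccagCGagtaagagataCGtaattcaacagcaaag
Gm46961: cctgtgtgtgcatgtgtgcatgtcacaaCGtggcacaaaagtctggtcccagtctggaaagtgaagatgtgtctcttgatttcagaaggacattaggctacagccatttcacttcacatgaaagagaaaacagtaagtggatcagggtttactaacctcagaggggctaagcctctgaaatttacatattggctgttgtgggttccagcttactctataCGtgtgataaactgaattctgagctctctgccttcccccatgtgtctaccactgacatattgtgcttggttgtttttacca
Gm35545: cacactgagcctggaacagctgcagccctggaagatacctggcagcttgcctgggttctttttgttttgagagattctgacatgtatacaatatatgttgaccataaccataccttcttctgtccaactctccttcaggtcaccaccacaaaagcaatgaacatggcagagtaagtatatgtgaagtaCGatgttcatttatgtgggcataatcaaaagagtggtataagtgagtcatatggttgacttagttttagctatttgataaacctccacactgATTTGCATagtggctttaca

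The 3 loci carried the marks to different degrees. Igk had the most Polycomb peaks, with 1023 H3K27me3 peaks spread over 29 of 29 libraries and 3236 H2AK119Ub peaks over 24 of 24. Its enrichment was above that of Igh, Igl and the T cell receptor loci Tcra, Tcrb and Tcrg in 29 of 29 H3K27me3 lists and in 24 of 24 H2AK119Ub lists. The T cell receptor loci, which B cells do not rearrange, stood lower than Igk. H2AK119Ub in Tcrb was 0.301 ± 0.285 at 24 h and 3.15 ± 1.32 at 0 h (SD, n = 12 each), so Tcrb too had a lower value at 24 h. Tcra stood at 0.407 ± 0.153 and 0.237 ± 0.229, and Tcrg at 0.365 ± 0.433 and 0.404 ± 0.422. These were not tested. H3K27me3 enrichment in Igh was above Tcra and Tcrb in 0 of 29 lists, and that in Igl was above them in 15 and 16 of 29. Igl was the most acetylated locus. At 0 h it was enriched for Polycomb marks as well, with H2AK119Ub at 8.99 ± 4.17 and H3K27me3 at 3.20 ± 1.44. Its H3K27ac peaks had a median width of 20985 bp, against 7800 bp for the autosomal peaks of that mark, and their median total signal stood at percentile 95.3 of its own list. Total signal is the authors' sum of coverage under a peak, on a scale not shown to be shared between lists, so only ranks within a list are used. Igh carried 26 H3K27me3 peaks, found in 12 of 29 libraries, while 472 H2AK119Ub and 141 H3K27ac peaks lay in 23 of 24 and 24 of 24 libraries.

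**Figure D1:**
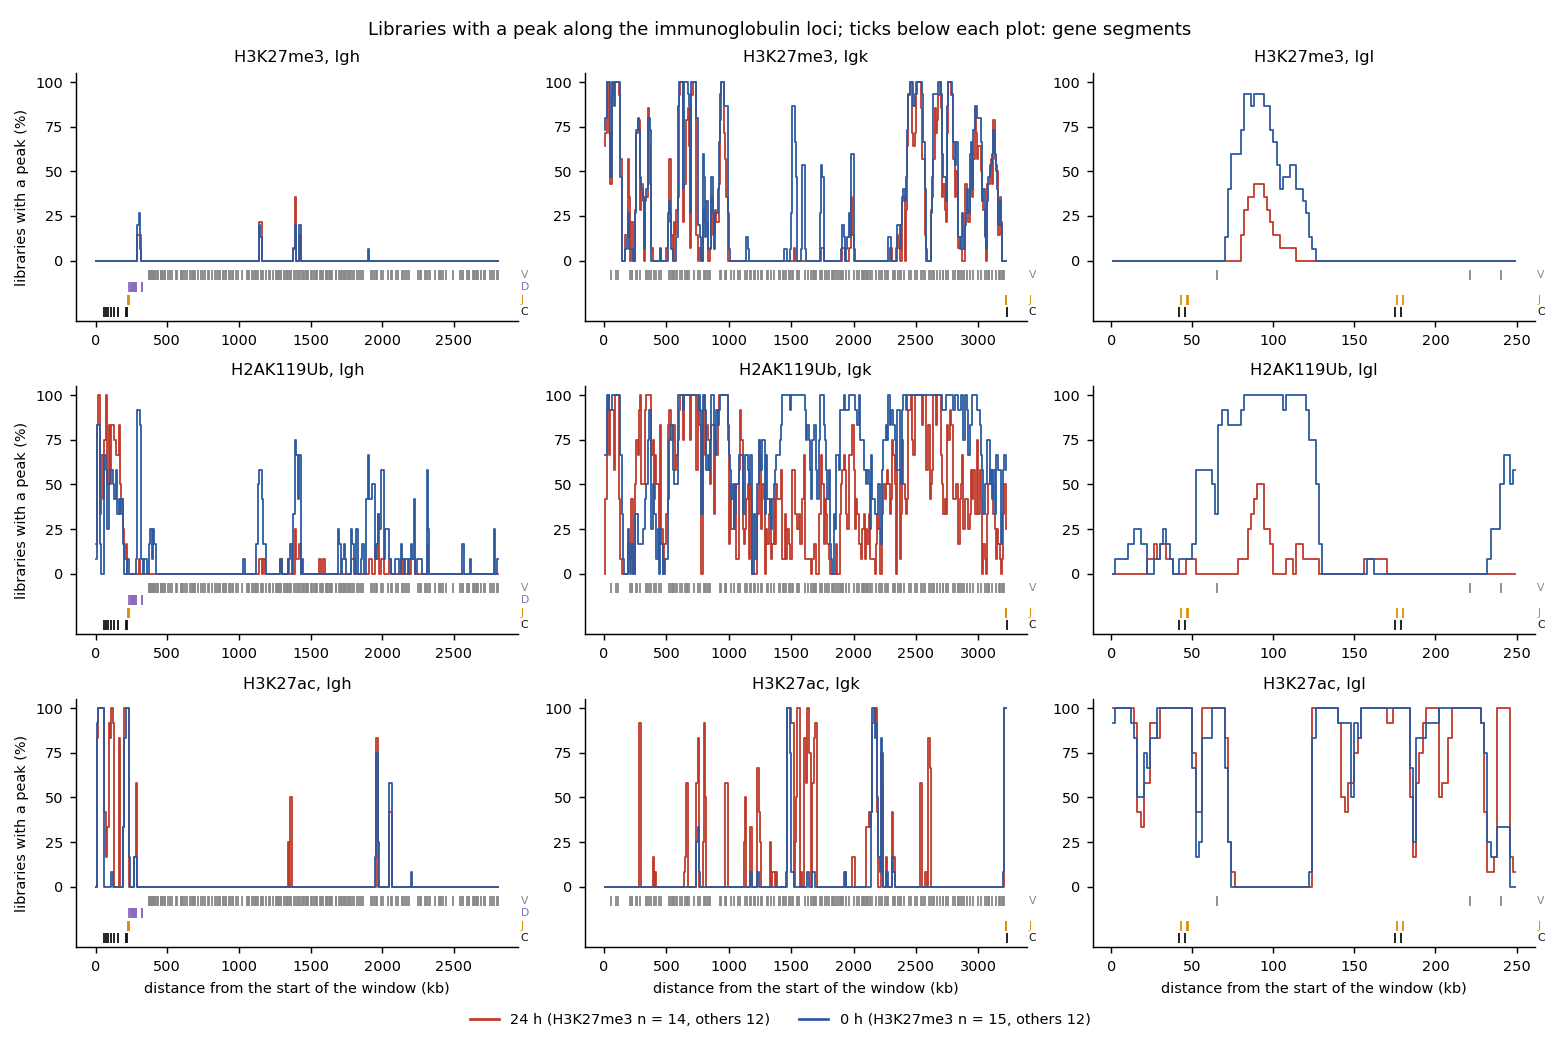
Share of libraries (%) with a peak along each window (kb from its start) for the 3 marks and 3 loci, in red for 24 h (n = 14 for H3K27me3, 12 for the others) and blue for 0 h (n = 15 and 12), with ticks below for V, D, J and C segments. The V array of Igk holds many Polycomb peaks, with fewer of H3K27me3 in its middle, and that of Igh holds fewer. Igl shows an H2AK119Ub and H3K27me3 block between H3K27ac peaks, lower at 24 h.

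After 24 h with CpG the enrichment of both Polycomb marks in Igk and Igl, relative to the autosomes, was lower. H2AK119Ub enrichment in Igk averaged 4.17 ± 0.32 at 24 h and 16.2 ± 6.71 at 0 h (SD, n = 12 each). In the mb1-cre system the Xist fl/fl libraries stood at 3.92, 4.29 and 4.32 at 24 h, against 12.5, 10.9 and 26.4 at 0 h. The WT libraries of that system stood at 4.83, 4.23 and 4.58 at 24 h, against 25.7, 8.19 and 23.1 at 0 h. The 24 h libraries lay below the 0 h libraries in each of the 4 combinations of system and genotype, with no overlap. In the TAT-Cre system the Xist fl/fl values were 3.87, 4.15 and 3.96 at 24 h and 13.2, 18.2 and 10.2 at 0 h. The WT values there were 4.22, 3.72 and 3.91 at 24 h and 23.0, 12.5 and 10.0 at 0 h. The mean difference within the 4 strata was -12.0 ± 2.17 (SE), with an exact two-sided stratified permutation p of 1.25e-05 and a Benjamini-Hochberg adjusted p of 5.63e-05 over 18 comparisons. Short lists gave high ratios at 0 h: the lists of 2011 and 2179 peaks stood at 26.4 and 25.7, and the list of 40688 peaks at 8.19. The lists at 24 h held 9334 peaks or more. The difference was -7.08 without lists under 3000 peaks, an alternative chosen after seeing the data, and -20.0 with lists trimmed to equal length, and passed in both.

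H3K27me3 enrichment in Igk fell as well. It averaged 3.81 ± 0.42 at 24 h (SD, n = 14) and 6.33 ± 0.75 at 0 h (SD, n = 15), and the 24 h libraries, 2.85 to 4.52, lay below all 0 h libraries, 5.05 to 7.64. The difference within strata was -2.46 ± 0.27 (SE; exact permutation p = 2.83e-07, the smallest these strata can give; adjusted p = 5.1e-06). The share of Igk covered was 17.3 ± 9.9% at 24 h and 23.0 ± 9.8% at 0 h, with wide overlap, and this difference lay in the TAT-Cre system, where Cre and CpG cannot be told apart. There Xist fl/fl libraries covered 8.36 ± 1.33% at 24 h and 18.8 ± 9.9% at 0 h, and WT libraries 7.72 ± 3.22% and 21.8 ± 3.3% (SD, n = 3 each). In the mb1-cre system the share was 26.0 ± 6.9% at 24 h (n = 4) and 27.2 ± 14.8% at 0 h (n = 5) in Xist fl/fl. In WT it was 22.5 ± 7.8% and 21.6 ± 5.7% (SD, n = 4 each). The ratio to the autosomes was thus lower there while the share of Igk was not. The Xist fl/fl group at 0 h includes replicate 5, whose time is unsettled. That library had the highest share of all 0 h libraries, 49.9%, and raised the mean and SD of its group. H2AK119Ub covered 21.6 ± 5.5% of Igk at 24 h and 50.5 ± 11.6% at 0 h, and here the ranges, 14.4 to 30.7% and 33.1 to 67.2%, did not meet.

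Igl held few Polycomb peaks at 24 h. H2AK119Ub enrichment averaged 0.541 ± 0.400 at 24 h and 8.99 ± 4.17 at 0 h (SD, n = 12 each), a difference of -8.44 ± 1.34 (SE; exact permutation p = 1.25e-05, adjusted p = 5.63e-05), and the highest 24 h library, 1.45, lay under the lowest at 0 h, 4.44. H3K27me3 there averaged 0.416 ± 0.532 at 24 h (n = 14) and 3.20 ± 1.44 at 0 h (n = 15). The difference within strata was -2.67 ± 0.34 (SE, exact permutation p = 2.83e-06, adjusted p = 2.55e-05). In 8 of the 14 libraries at 24 h there was no H3K27me3 peak in Igl, against 1 of 15 at 0 h. The block lay between Iglv1 and Gm18748, chr16:19085461-19161240, where H2AK119Ub peaks covered 5.02 ± 5.47 kb at 24 h and 55.3 ± 9.34 kb at 0 h of 75.8 kb. H3K27me3 covered 6.53 ± 8.95 kb of it at 24 h and 29.4 ± 14.7 kb at 0 h. H3K27ac covered 21.5 ± 1.50 kb and 21.3 ± 2.20 kb, in 12 of 12 libraries at both times.

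H2AK119Ub enrichment in Igh was below the autosomal level at 24 h, 0.468 ± 0.085, and near that level at 0 h, 0.890 ± 0.344 (SD, n = 12 each). The 0 h libraries ranged from 0 to 1.19. The difference within strata was -0.42 ± 0.11 (SE, exact permutation p = 0.0014, adjusted p = 0.0042). Lists trimmed to equal length gave -0.269, which did not pass. H3K27me3 in Igh, 0.0329 ± 0.0564 at 24 h and 0.0509 ± 0.0633 at 0 h, did not pass either (exact permutation p = 0.28, adjusted p = 0.36).

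**Figure D2:**
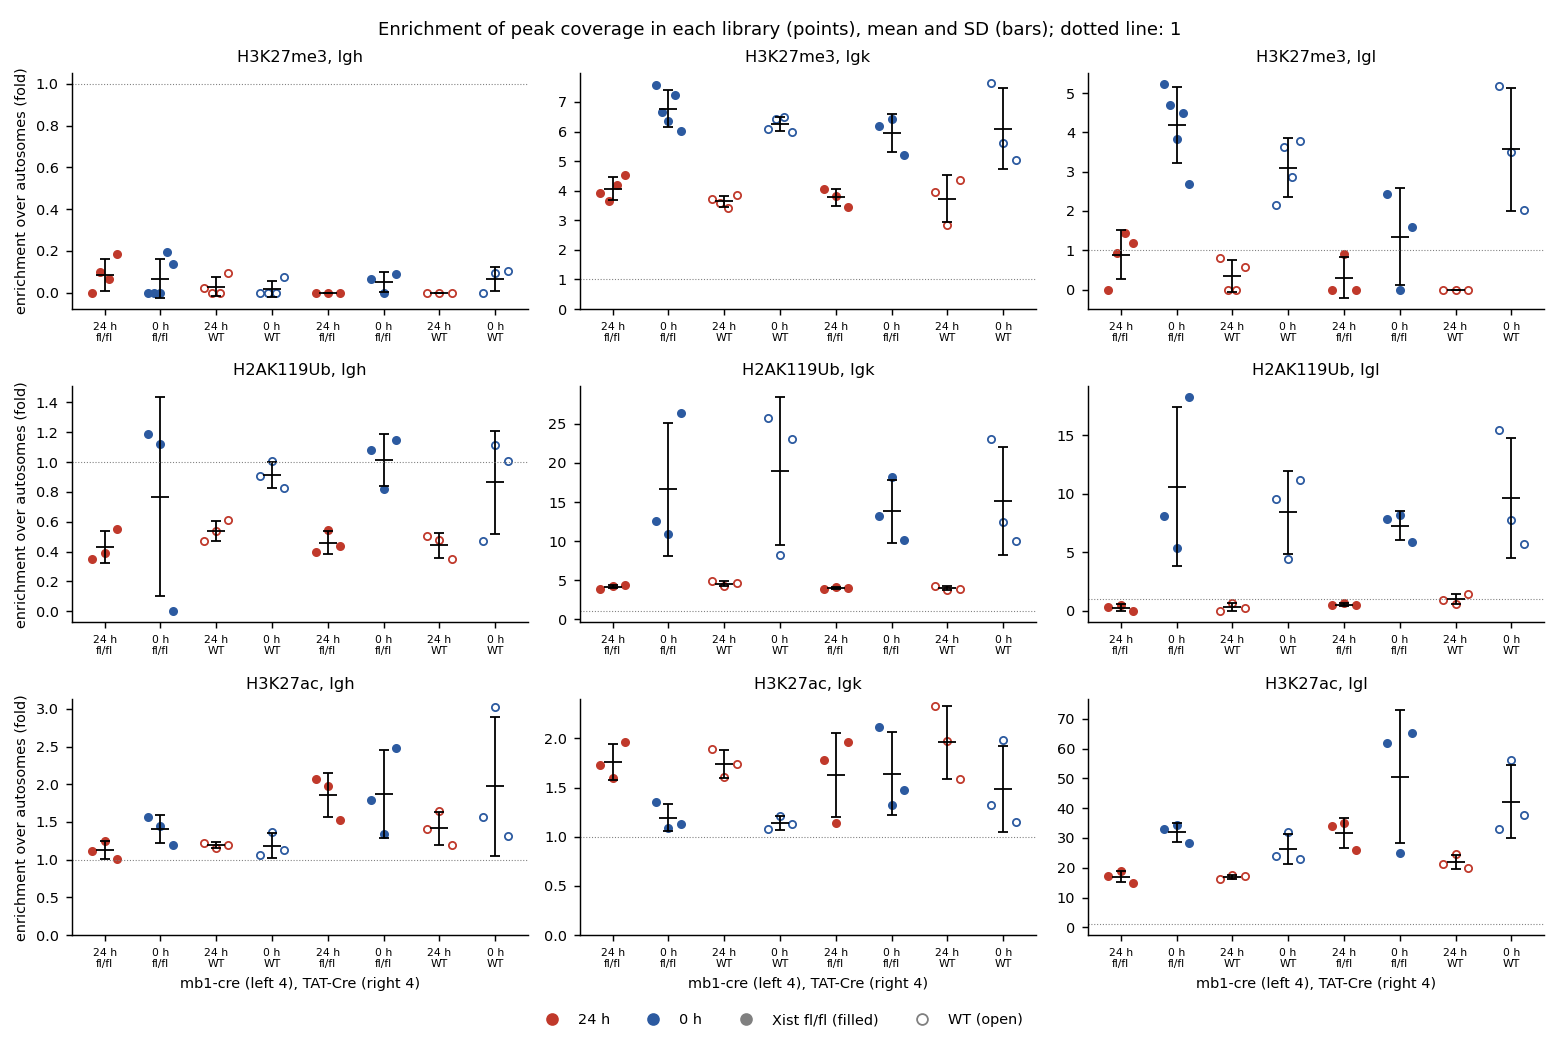
Enrichment (fold, coverage of the locus over coverage of the autosomes) in each library, with the mean and SD, for each mark and locus. Within a system the order is 24 h and 0 h for Xist fl/fl (filled) and then for WT (open). In Igk the 24 h libraries of H2AK119Ub, 3.72 to 4.83, and of H3K27me3, 2.85 to 4.52, sit below all 0 h libraries.

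H3K27ac covered most of Igl at both times and little of Igk. In Igl it covered 62.1 ± 7.8% of the window at 24 h and 62.7 ± 8.5% at 0 h (SD, n = 12 each). Its enrichment was nevertheless lower, 21.9 ± 6.7 at 24 h and 37.8 ± 14.8 at 0 h (difference -15.9 ± 3.87, SE; exact permutation p = 0.000238, adjusted p = 0.000855), while the autosomal coverage in the denominator was 31.8 to 120 Mb at 24 h and 19.7 to 74.3 Mb at 0 h. Peaks touched Iglc1, Iglc2 and Iglc3, which encode λ constant regions, and Iglv1 and Iglv3 in 12 of 12 libraries at each time. Iglv2 was touched in 12 of 12 libraries at 24 h and 4 of 12 at 0 h.

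In Igk H3K27ac enrichment averaged 1.77 ± 0.29 at 24 h and 1.37 ± 0.34 at 0 h (difference 0.41 ± 0.13, SE; exact permutation p = 0.00703, adjusted p = 0.0181). This direction depended on list length: with lists trimmed to 1336 peaks the difference was -0.73. The J-C part of Igk, which holds the intronic κ enhancer, was covered over 92.7 ± 11.4% at 24 h and 89.9 ± 8.9% at 0 h, and Igkc, the κ constant region, had a peak in 12 of 12 libraries at each time. H3K27me3 had no peak in the J-C part in any library. The H3K27ac regions found in 24 of 24 libraries were chr6:68969445-68994926, over Igkv13-82, chr6:69641886-69666753, and chr6:70711370-70769598, which holds the J-C part. Peaks in Igk were more numerous and narrower at 24 h, 24.1 ± 8.5 per library with median widths of 6544 ± 703 bp, against 6.5 ± 4.4 at 0 h with median widths of 13912 ± 5210 bp.

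Along the V array of Igk, cut into 3 equal lengths, H2AK119Ub had a lower mean at 24 h in each. The middle length was covered over 9.26 ± 4.33% at 24 h and 47.4 ± 16.1% at 0 h, with the highest 24 h library at 17.1% and the lowest 0 h library at 18.8%. The J-proximal length stood at 22.4 ± 6.7% at 24 h and 60.6 ± 11.6% at 0 h, and the J-distal length at 33.5 ± 7.2% and 43.9 ± 8.3%. H3K27me3 lay mostly in the outer lengths, with 0.406 ± 0.813% in the middle at 24 h and 4.52 ± 4.92% at 0 h, while H3K27ac took 8.89 ± 3.81% of the middle at 24 h and 1.87 ± 0.40% at 0 h. These parts were not tested against each other.

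Of the 162 Igk V segments (60 of them annotated as pseudogenes), H2AK119Ub touched 31.8 ± 7.7% at 24 h and 61.5 ± 14.5% at 0 h. H3K27ac touched 13.4 ± 5.2% at 24 h and 3.14 ± 1.63% at 0 h. With a segment counted as marked when 50% or more of the libraries of a time had a peak on it, H3K27ac marked 22 segments at 24 h and 4 at 0 h, and all 4 were among the 22. H2AK119Ub marked 47 at 24 h and 103 at 0 h, with 37 at both times, and H3K27me3 marked 19 at 24 h, all of them among the 30 marked at 0 h. The 18 segments with H3K27ac at 24 h and not at 0 h included 17 that were marked by H2AK119Ub at 0 h and 7 that were at 24 h. Lists of H3K27ac were longer at 24 h, and the part this played was not tested.

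Single segments illustrate these counts. Igkv4-78 had H3K27ac in 12 of 12 libraries at 24 h and 0 of 12 at 0 h, and H2AK119Ub in 3 of 12 at 24 h and 12 of 12 at 0 h. Igkv4-80 had H3K27ac in 10 of 12 libraries at 24 h and 0 of 12 at 0 h, H2AK119Ub in 4 of 12 and 12 of 12, and H3K27me3 in 0 of 14 and 11 of 15. Igkv4-73 and Igkv4-74, nearer to the J segments, had H3K27ac in 11 and 10 of 12 libraries at 24 h and in 0 of 12 at 0 h. The pseudogene Igkv13-82 had H3K27ac in 12 of 12 libraries at both times and H2AK119Ub in 0 of 12 libraries at 24 h and 12 of 12 at 0 h. Igkv13-84 had no H3K27ac peak in any library and H2AK119Ub in 0 of 12 libraries at 24 h and 12 of 12 at 0 h. Igkv14-130, near the J-distal end, showed the opposite order, with H2AK119Ub in 10 of 12 libraries at 24 h and 1 of 12 at 0 h, beside H3K27ac in 11 of 12 and 0 of 12. Igkv5-37 and Igkv1-35 kept H3K27me3 in 14 of 14 libraries at 24 h and 15 of 15 at 0 h.

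**Figure D3:**
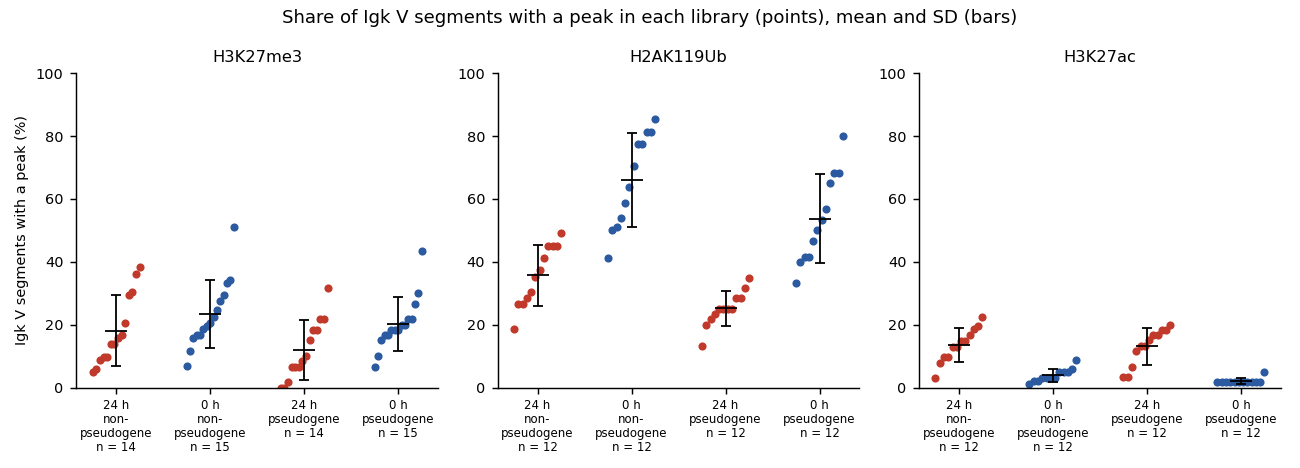
Share (%) of the Igk V segments with a peak in each library (points), with the mean and SD, split by whether RefSeq annotates the segment as a pseudogene, at 24 h (red) and 0 h (blue). H2AK119Ub lies lower and H3K27ac higher at 24 h in both classes.

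The overlap of the marks in Igk was counted in 1-kb bins with a peak in 50% or more of the libraries of a time. H3K27me3 held 521 kb and H2AK119Ub 527 kb at 24 h and shared 318 kb, 61.0% and 60.3% of each. At 0 h they held 671 kb and 1697 kb and shared 616 kb, 91.8% of H3K27me3 and 36.3% of H2AK119Ub. H3K27ac shared 6 kb with H3K27me3 at 24 h and 0 kb at 0 h. With H2AK119Ub it shared 35 kb at 24 h, 20.5% of H3K27ac, and 23 kb at 0 h, 32.4% of H3K27ac. H2AK119Ub held 16.3% of the whole Igk window at 24 h and 52.5% at 0 h. Its share of the H3K27ac bins was thus near that level at 24 h and below it at 0 h. Its share of the H3K27me3 bins was above that level at both times. These overlaps were not tested. The widest H2AK119Ub peak ran over 409 kb of the J-proximal array, chr6:69889440-70298618, in an mb1-cre WT library at 0 h, and ranked 2 in its list by total signal.

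Presence of a peak in 10-kb tiles was tested across the autosomes and X, with an exact conditional test within those strata and Benjamini-Hochberg adjustment. For time, each list was trimmed to the shortest of its mark by total signal, so that a tile with a peak is one that ranks high in its list. H2AK119Ub was present less often at 24 h in 120 of 182 tiles of the windows, against 19.7% of all 9618 tiles tested, and more often in 0, against 12.4% of all tiles. Of the 120, 111 lay in Igk, 7 in Igl and 2 in Igh. In Igl the tiles from 19100001 to 19130000 had a trimmed peak in 0 of 12 libraries at 24 h and 12 of 12 at 0 h (exact conditional test, adjusted p = 0.000437), and a deposited peak in 6, 7 and 1 of 12 libraries at 24 h. With the deposited lists 33 of 320 tiles were called less often present at 24 h, against 0.808% of all tiles, and 3 more often, against 4.73%.

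For H3K27me3 9 of 87 tiles were present less often at 24 h, 7 in Igk and 2 in Igl, against 0.537% of all 10064 tiles, and 0 more often, against 0.189%. With replicate 5 at 24 h 2 tiles were called, and with a replicate block 0. The tile 68150001 to 68160000, which holds the pseudogene Igkv2-116, had a trimmed peak in 1 of 14 libraries at 24 h and 15 of 15 at 0 h (exact conditional test, adjusted p = 0.00214), and a deposited peak in 6 of 14 and 15 of 15. With the deposited lists 0 tiles of the windows were called, with 1 more often and 21 less often present at 24 h at an unadjusted p under 0.05.

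For H3K27ac 2 of 18 tiles were present more often at 24 h, both in Igh, against 14.8% of all 5297 tiles, and 4 less often, all in Igk, against 11.2%. The Igk tiles from 69650001 to 69670000 had a trimmed peak in 1 of 12 libraries at 24 h and 12 of 12 at 0 h (exact conditional test, adjusted p = 0.00102), yet a deposited peak in 11 and 12 of 12 at 24 h and 12 of 12 at 0 h. With the deposited lists 32 of 70 tiles were present more often at 24 h, 25 of them in Igk, against 25.4% of all tiles, and 0 less often, against 0.681%.

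In Igh the H3K27ac peaks at 24 h appeared among the constant genes. At both times 12 of 12 libraries had peaks below Igha, where the 3′ regulatory region of the locus lies, over 37.2 ± 1.4 kb at 24 h and 36.9 ± 0.8 kb at 0 h, and over Ighm, the gene of the IgM constant region. The stretch between Ighg2b and Ighg1, upstream of the IgG2b gene, had a peak in 12 of 12 libraries at 24 h and 1 of 12 at 0 h, covering 13.9 ± 3.5 kb and 0.363 ± 1.26 kb. The stretch upstream of Ighg2c, the IgG2c gene, had one in 11 of 12 libraries at 24 h and 0 of 12 at 0 h. A peak at chr12:113360080-113369350, at and upstream of Ighg3, was in 10 of 12 libraries at 24 h and 0 of 12 at 0 h. The whole stretch from Ighg3 to Ighd differed less. It had a peak in 12 of 12 libraries at 24 h and 9 of 12 at 0 h, over 12.5 ± 3.7 kb and 5.11 ± 3.65 kb. The stretch upstream of Ighg1 had none in any library. The tile 113310001 to 113320000, between Ighg2b and Ighg1, was present in 7 of 12 trimmed lists at 24 h and 0 of 12 at 0 h (exact conditional test, adjusted p = 0.0242), and in 12 of 12 and 1 of 12 deposited lists.

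Over the same constant genes H2AK119Ub was not lower at 24 h. It covered 26.9 ± 9.2% of the constant part at 24 h and 13.6 ± 10.7% at 0 h, with overlapping ranges, and was not tested. H3K27me3 had no peak there in any of 29 libraries. Between Adam6b and Adam6a, a pair of genes of the ADAM family near the end of the D segments toward the V array, with Ighd3-1 and Ighd5-1 between them, H2AK119Ub was present in 1 of 12 libraries at 24 h and 11 of 12 at 0 h, over 0.282 ± 0.976 kb and 15.1 ± 6.1 kb. Few V segments were touched: of the 184 Igh V segments 182 had no H3K27me3 peak, 180 no H3K27ac peak and 149 no H2AK119Ub peak in any library. The array itself did hold H2AK119Ub peaks. Its J-proximal, middle and J-distal lengths had means of 0.0833, 1.67 and 0.583 peaks per library at 24 h. At 0 h the means were 3.5, 7.83 and 4.75, over 1.54, 4.05 and 2.00% of these lengths. These parts were not tested.

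**Figure D4:**
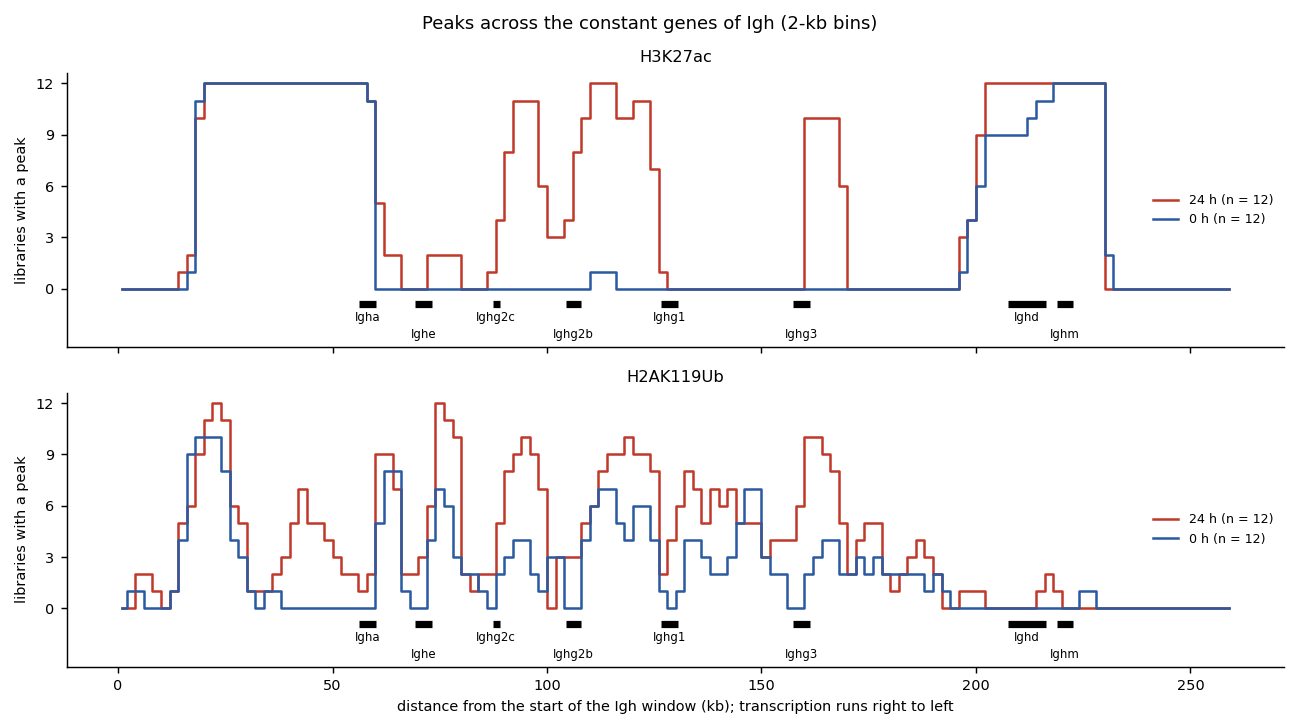
Number of libraries with a peak in 2-kb bins across the constant genes of Igh, for H3K27ac and H2AK119Ub at 24 h (red, n = 12) and 0 h (blue, n = 12), by distance from the start of the window (kb), with constant genes as black bars. H3K27ac below Igha and over Ighm is present at both times, and the peaks just before Ighg2b, Ighg2c and Ighg3 are seen in 10 or more libraries at 24 h and in 1 or fewer at 0 h. Farther from Ighg3, toward Ighd, 9 of 12 libraries have a peak at 0 h.

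H3K27ac touched 2 to 3 of 5 plasma cell markers per library at 24 h and 1 to 2 at 0 h, with Prdm1, the regulator of plasma cell differentiation, in 9 of 12 libraries at 24 h and 0 of 12 at 0 h, and Xbp1 in 12 of 12 and 3 of 12. Irf4 had a peak in 12 of 12 libraries at both times, and Sdc1 and Jchain had none in any library. These counts were not tested, and the H3K27ac lists were longer at 24 h. Klrb1c of the NK cell list had a peak in 11 of 12 libraries at 24 h and 0 of 12 at 0 h, and Hbb-bt of the erythroid list in 12 of 12 and 7 of 12. Their part in the Igh result was not tested.

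Xist genotype was compared within mb1-cre at 24 h, mb1-cre at 0 h and TAT-Cre at 24 h. Of the 9 enrichment comparisons 7 did not pass. For Igk H2AK119Ub stood at 8.26 in Xist fl/fl and 9.17 in WT (mean of the 3 strata; difference -0.90 ± 2.45, SE; exact permutation p = 0.883), and H3K27me3 at 4.87 in Xist fl/fl and 4.54 in WT (0.33 ± 0.20; exact permutation p = 0.113). H3K27me3 in Igl was higher, at 1.79 in Xist fl/fl and 1.15 in WT (0.64 ± 0.25, SE; exact permutation p = 0.018, adjusted p = 0.0361), and H3K27ac in Igl was 26.8 in Xist fl/fl and 21.8 in WT (5.08 ± 1.61; exact permutation p = 0.018, adjusted p = 0.0361). Libraries of the 2 genotypes overlapped in H3K27me3 in each stratum, and in the mb1-cre system at 24 h H3K27ac differed by 0.06 ± 1.18 (SE). In the TAT-Cre system at 24 h, where H3K27ac was 31.6 ± 5.0 in Xist fl/fl and 21.9 ± 2.4 in WT (SD, n = 3 each), the share of Igl covered was 52.8 ± 6.8% and 62.1 ± 6.5%. The TAT-Cre cells at 0 h, which had no Cre, were kept out of the comparison as a baseline. There Igl H3K27ac was 50.6 ± 22.3 in Xist fl/fl and 42.2 ± 12.3 in WT (SD, n = 3 each; difference 8.36 ± 14.7, SE; exact permutation p = 0.7), which is no smaller than the difference that passed. Igl H3K27me3 was 1.35 ± 1.24 in Xist fl/fl and 3.57 ± 1.57 in WT (difference -2.22 ± 1.16, SE; exact permutation p = 0.2), opposite in sign to the difference that passed. With 3 against 3 the smallest p is 0.1. Neither result passed with lists trimmed to equal length, which gave 0.66 for H3K27me3 and 3.67 for H3K27ac.

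No tile was called between genotypes for any mark in either direction, in the windows or elsewhere: 0% of 25698 tiles for H3K27me3, 0% of 46734 for H2AK119Ub and 0% of 14316 for H3K27ac (exact conditional test with Benjamini-Hochberg adjustment). At an unadjusted p under 0.05 there were 450, 607 and 174 tiles over the whole table and 2, 1 and 1 in the windows. With 3 strata of 3 against 3 the smallest p that H2AK119Ub and H3K27ac can give is 0.00025, which does not pass the adjustment unless many tiles reach it. The counts of 0 for these marks therefore say nothing of whether single tiles differ. For H3K27me3 the test recovered 57.5% of 200 simulated changed tiles at a log-odds shift of 6 and 0 at a shift of 3. Its count of 0 therefore says nothing of smaller differences. No difference in effect between the mb1-cre and TAT-Cre systems passed (exact permutation of the difference, smallest adjusted p = 0.598). For genotype at 24 h H2AK119Ub and H3K27ac allowed 400 permutations each, so no single comparison could pass the adjustment. Igl H3K27ac differed there by 9.64 in TAT-Cre and 0.06 in mb1-cre. Agreement of the systems is therefore not shown.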

How the data were processed

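CUT&RUN peaks of H3K27me3, H2AK119Ub and H3K27ac were analysed in 77 libraries of B cells. Per the submitters' processing notes, Trimmomatic 0.32, Bowtie2 2.3.4.1, Picard and deepTools 3.5.1 were used, with mm10; per the labels, 3 µg of antibody went into H3K27me3 and H3K27ac reactions and 1.5 µg into H2AK119Ub reactions. SEACR, norm and relaxed, is read from how the deposited lists are named; for its version, its control and spike-in scaling, details are not given in the sources. In the deposited lists the unit is signal: column 4 is the total signal and column 5 the highest signal of a peak, made by the authors, 1 list per library.

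Peaks touching a window by 1 bp or more were kept, and positions are given counted from 1. Enrichment is the percent of a window covered divided by that of the 19 autosomes. Libraries were permuted within strata (exact, two-sided), with Benjamini-Hochberg adjustment over 18 comparisons. Tiles of 10 kb had to be present in 3 libraries and absent in 3. For time, lists were trimmed to 1955 (H3K27me3), 2004 (H2AK119Ub) and 1336 (H3K27ac) peaks by column 4. Alternatives were trimming, the upper 50% by column 5, share of column 4, log2 with 0.1 added, the same chromosome as reference, replicate 5 at 24 h, a replicate block, no filter, an overlap of 500 bp, each library left out and, chosen after seeing the data, lists under 3000 peaks left out. Genes came from the RefSeq table of GRCm38.p6. Any gene in the windows could be named; regions were the 6 merged ones found in most libraries and the 3 widest and 3 highest peaks of a mark, and tiles the 3 of smallest p in each direction. Members, lists and parts were chosen with earlier results of these data known. Tests were checked on simulated data, in which the genotype tile test recovered no changed tile for H2AK119Ub or H3K27ac and, at the smaller shift, none for H3K27me3. Python 3.11.15, numpy 2.4.6, pandas 2.3.3 and scipy 1.17.1 were used.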

Additional observations from a re-analysis of the deposited data

Results flagged for a closer look

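In the 4 H3K27me3 libraries of mb1-cre WT cells at 0 h, replicate 4 stood apart in Igh, with an enrichment of 0.0743 while the other 3 libraries had no peak in the locus and stood at 0. Its gap to the others was the whole range of the group. With 3 libraries at 0, any peak in the remaining library gives this gap, so the usual rate of 1 in 20 groups flagged by chance does not apply. Only the H3K27me3 groups of the mb1-cre system had enough libraries for this check.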

How the results depend on the processing

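The fall of Igk H3K27me3 and the lower Igl H3K27ac enrichment at 24 h kept their direction and passed under every alternative run. The falls of Igk and Igl H2AK119Ub kept their direction under every alternative too. They passed in each, except that only the direction is given without lists under 3000 peaks. There 1 library was left in mb1-cre WT at 0 h. Igl H3K27me3 kept its direction and missed the threshold with the upper 50% by column 5 (-1.46). The other results moved more. With trimmed lists the difference was 0.66 for Igl H3K27me3 by genotype, 3.67 for Igl H3K27ac by genotype and -0.27 for Igh H2AK119Ub by time, none of which passed, and it turned in sign for Igh H2AK119Ub by genotype (0.0103), Igh H3K27ac by time (0.17) and Igk H3K27ac by time (-0.73). With the upper 50% by column 5 the difference no longer passed for Igl H3K27me3 by genotype (0.92), Igl H3K27ac by genotype (8.03) and Igh H2AK119Ub by time (-0.31), and Igk H3K27ac by time turned to -0.16. With the share of column 4, Igk H3K27ac was 0.0037 by time, not passing, and turned to 0.0325 by genotype. On the log2 scale Igl H3K27me3 by genotype (0.93) and Igh H2AK119Ub by time (-0.62) did not pass, and Igl H2AK119Ub by genotype turned to -0.16. Igl H3K27me3 by genotype did not pass with the same chromosome as reference (0.95) or without lists under 3000 peaks (0.61). Without those lists Igh H2AK119Ub by genotype (0.0188), Igk H2AK119Ub by genotype (1.06) and Igh H3K27ac by time (0.0541) turned in sign. The cause was not tested.

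Leaving out 1 library at a time, the genotype differences ranged from 0.54 to 0.77 for Igl H3K27me3, losing the call in 11 of 23 cases, and from 4.50 to 6.03 for Igl H3K27ac, losing it in 7 of 18. They ranged from -0.15 to 0.0492 for Igh, from -2.71 to 0.21 for Igk and from -0.71 to 1.44 for Igl H2AK119Ub, crossing 0. Tiles of the windows called for time numbered 0 with deposited lists and 2 with replicate 5 at 24 h for H3K27me3 (9 as reported), 36 with deposited lists for H2AK119Ub (120), and 3 with no filter and 32 with deposited lists for H3K27ac (6).

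Same-numbered libraries did not all deviate together: correlations of their deviations ran from -0.20 to 0.26, with 0 pairs over 0.1 for time and, for genotype, 2 of 11 for H3K27me3, 2 of 9 for H2AK119Ub and 2 of 9 for H3K27ac, so they were taken to share only a number. With a replicate block the called tiles for time were 0 for H3K27me3, 101 for H2AK119Ub and 2 for H3K27ac, and no enrichment call changed; Igk H2AK119Ub by time was -12.0 and Igk H3K27me3 by time -2.51. Read depth was not used here, and lists of 1336 to 40688 peaks limit what a missing peak can show: it may be a peak below a list's own threshold.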
